A study of Mus musculus with 21 samples.

Results

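Genes of the core circadian loop were followed in mouse colon: Arntl, Clock, Npas2, Per1, Per2, Per3, Cry1, Cry2, Nfil3 and Bhlhe41. They are the rows of the count table that carry these symbols, 10 of 24062 genes, and all 10 were among the 15936 genes that passed the low-count filter and were tested. The rule reads only the symbol and has no threshold. The members were nevertheless chosen by a list drawn up after expression values of clock genes in these libraries had been seen, and which comparison drew attention to them is not recorded, so the folds and adjusted p-values below describe these libraries and are not independent evidence.

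RNA sequencing of colon from C57BL/6 mice gave 21 libraries in 7 groups of 3. Mice were wild-type or carried App NL-G-F, a knock-in allele of the gene for the amyloid precursor protein with mutations related to Alzheimer's disease, and the series asks why AOM/DSS had different outcomes in that background. AOM/DSS pairs azoxymethane, a carcinogen, with the epithelium-damaging agent dextran sulfate sodium. The groups were normal colon of wild-type males, knock-in males, wild-type females and knock-in females, and AOM/DSS tumours of wild-type males, knock-in males and wild-type females. No tumours of knock-in females were analysed here. The labels call the normal libraries untreated, whereas the series text speaks of tissue beside tumours or of colon without tumours, so they are called normal colon. The labels do not say whether the libraries of a group came from separate mice, so the p-values measure only the spread between these libraries. The time of day at which tissue was taken is not given in the sources used here. An effect of that time therefore cannot be told apart from one of genotype, sex or tissue.

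The loop works as a delayed feedback. The proteins of Arntl and of Clock or its relative Npas2 pair up, bind E-box sequences and switch on the Per and Cry genes, whose proteins return to the nucleus and block that pair. Arntl transcripts run opposite in phase to Per transcripts over a day, in gut epithelium and muscle as in most tissues. Nfil3 represses genes with D-boxes, and Bhlhe41 (also called Dec2) competes at E-boxes. ROR and REV-ERB nuclear receptors act on a further element, through which Arntl and Nfil3 are regulated.

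Depth ran from 3414123 to 26174008 counts per library, and 3 counts corresponded to between 0.115 and 0.879 CPM (counts scaled to a common library size). The members had at least 6 counts in every library. Ribosomal precursor Rn45s took between 2.84% and 14.1% of the counts. The running numbers of the wild-type libraries lie between 99 and 117 and those of the knock-in libraries start at 129, apart from 152 and 153 (wild-type female tumours) and 154 (a knock-in male tumour). A batch that follows these numbers and the genotype cannot be told apart. Within a genotype the numbers also follow sex in normal colon, and tissue, so the same holds for those. Wild-type female normal libraries are 99 to 101 and wild-type male ones 108 to 110. Colonocyte markers summed to between 1439 and 5792 CPM and goblet cell markers to between 2847 and 46934 CPM over all libraries. The knock-in changes the sequence of App, which gene counts do not read, so App counts are no check of the genotype labels.

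Promoter sequence was available for 9 of the 10 members (RefSeq, GRCm38.p6, windows from 250 bases before to 50 after each annotated start, 13 windows in all), and for Per2 none was used. The canonical E-box CACGTG lay in the windows of 3 of these 9 members, at 166 bases upstream of the start in Per1, 60 in Cry1 and 153 in Bhlhe41. Of 32851 mouse promoter windows 7.15% hold it. The variant E-box CACGTT, present in 4.68% of windows, lay 79 bases upstream in Cry1 and 166 in Cry2. The D-box TTANGTAA, in 2.32% of windows, occurred in Per3 alone, at 205 and at 158 bases upstream. The ROR element TAGGTCA, in 2.61% of windows, lay 12 bases upstream in Nfil3 and 31 bases after the start in the second window of Arntl, while the CRE TGACGTCA, in 1.79% of windows, was found in none. Both strands were searched, no 2 of these matches overlap, and a match is a description of the letters, not of binding. The stretches below are shown because they carry the elements through which the loop's factors are known to act on its own members, with the matches in capitals, 5′ to 3′ on the gene's strand.
Per1 promoter, chr11:69098711-69098860, + strand, E-box: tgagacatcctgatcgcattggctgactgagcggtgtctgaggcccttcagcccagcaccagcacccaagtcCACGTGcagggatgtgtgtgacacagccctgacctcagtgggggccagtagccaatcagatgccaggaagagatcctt
Cry1 promoter, chr10:85185065-85185214, - strand, variant E-box then E-box: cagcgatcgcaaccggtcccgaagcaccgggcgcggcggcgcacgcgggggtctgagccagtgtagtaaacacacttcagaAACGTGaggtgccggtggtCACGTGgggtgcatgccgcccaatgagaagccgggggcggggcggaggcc
Bhlhe41 promoter, chr6:145865559-145865670, - strand, E-box: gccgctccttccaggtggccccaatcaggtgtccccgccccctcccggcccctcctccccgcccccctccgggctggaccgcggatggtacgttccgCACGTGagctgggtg
Per3 promoter, chr4:151044766-151044915, - strand, D-boxes: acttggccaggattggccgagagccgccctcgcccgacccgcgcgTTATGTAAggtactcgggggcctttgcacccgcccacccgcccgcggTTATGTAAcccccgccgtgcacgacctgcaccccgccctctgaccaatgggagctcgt
Nfil3 start, chr13:52981034-52981063, - strand, ROR element on the opposite strand: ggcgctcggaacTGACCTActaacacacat
Arntl start, chr7:113207529-113207558, + strand, ROR element: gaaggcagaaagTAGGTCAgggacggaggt

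Levels were compared between genes only per kilobase of exon, from GENCODE M21 gene models. The median over the 21 libraries ran in the order Clock (18.2 CPM per kb), Per1 (10.2), Npas2 (9.99), Per2 (8.56), Cry1 (7.90), Cry2 (6.65), Nfil3 (5.49), Per3 (4.43), Arntl (3.61) and Bhlhe41 (0.713). Clock was also the steadiest member, its highest library being 2.13-fold above its lowest in CPM. The same ratio was 3.88 for Cry2, 4.03 for Cry1, 4.89 for Npas2, 6.09 for Arntl, 7.78 for Nfil3, 7.81 for Per2, 8.18 for Per1 and 9.11 for Per3. For Bhlhe41 it was 18.4, with its lowest library at 6 counts.

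**Figure D1:**
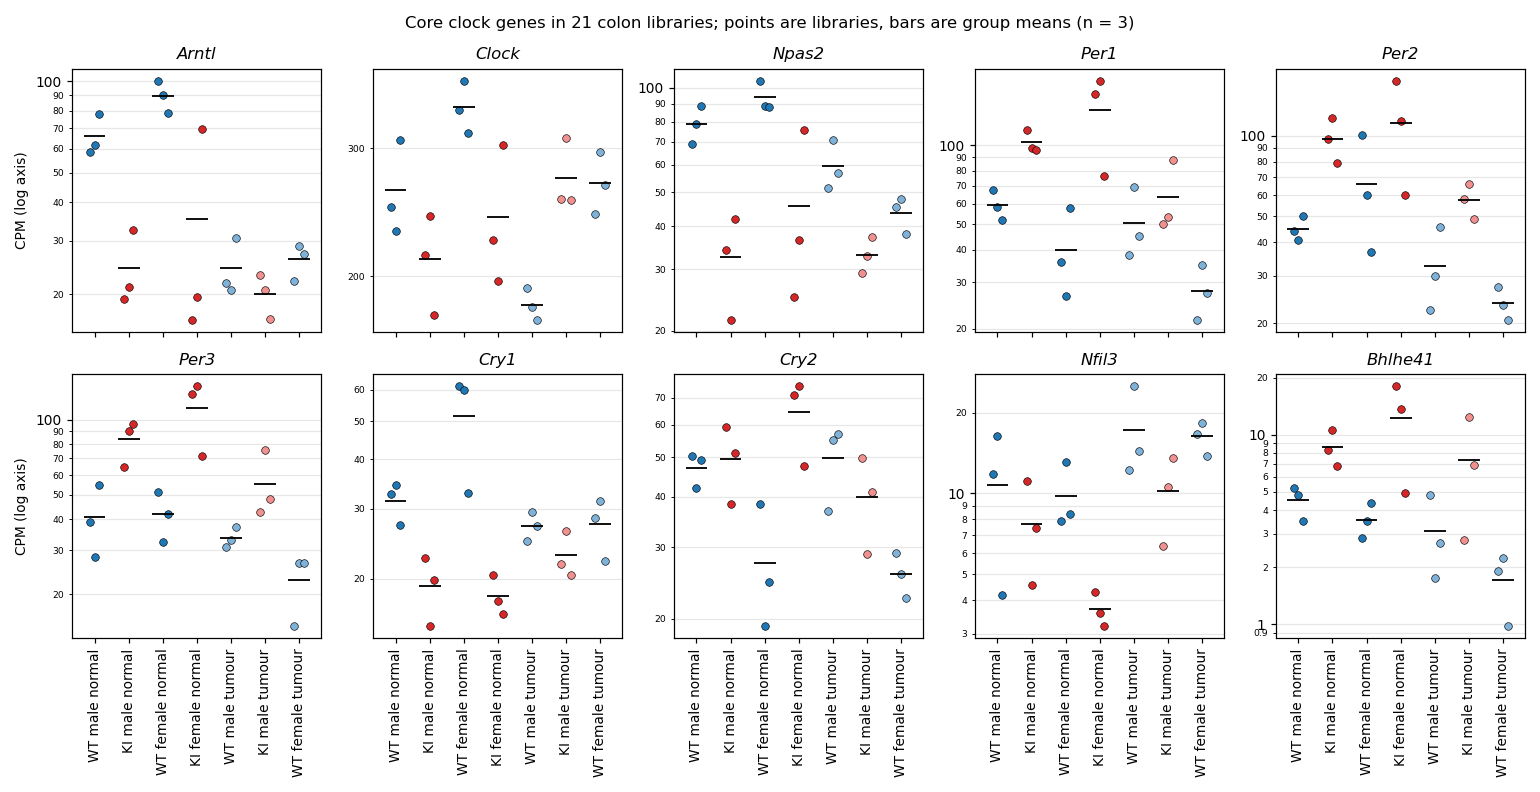
CPM of each of the 10 members (log axis) in the 7 groups, where points are libraries and bars are group means over 3 libraries (WT, wild-type; KI, App NL-G-F knock-in). Arntl lies between 58.6 and 100 CPM in the 6 wild-type normal libraries and at or below 32.6 CPM in all others except 1 knock-in female normal library at 69.7 CPM.

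The clearest difference ran between genotypes in normal colon, where genotype and time of collection cannot be told apart. In knock-in females the transcripts of Arntl, Clock, Npas2, Cry1 and Nfil3 were lower and those of Per1, Per3, Cry2 and Bhlhe41 higher than in wild-type females, 9 of the 10 members past an adjusted p of 0.05 (edgeR quasi-likelihood test, Benjamini-Hochberg over all tested genes). Of all tested genes 16% were called in this comparison (8.97% higher, 7% lower). The median log2 difference of the members was 0.12 and that of all tested genes 0.02, since the members split in both directions. In males 0 of the 10 members were called, where 0.0126% of all genes were. There 6 members had an unadjusted p under 0.05, the DESeq2 Wald test called 1, Npas2, and 7 of 10 did not overlap between genotypes (Per1, Per2, Per3 and Bhlhe41 higher, Arntl, Npas2 and Cry1 lower in the knock-in). Such separation was seen in 7.08% of all tested genes (3.75% higher, 3.33% lower). For unadjusted p-values and the Wald test, here and below, the share of all genes is not given. Those counts are therefore not set against a background. The member median was -0.12 against 0.00 for all genes. These 2 comparisons share no library, but both follow the split of library numbers by genotype. The log2 difference had the same sign in both sexes for 10 of 10 members, against 56.3% of all tested genes. The members vary together and were listed after values were seen, so these are not 10 separate observations. Cry2 differed by only 0.07 in males. The interaction of genotype with sex called 0 of the 10 members (2.54% of all genes).

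**Figure D2:**
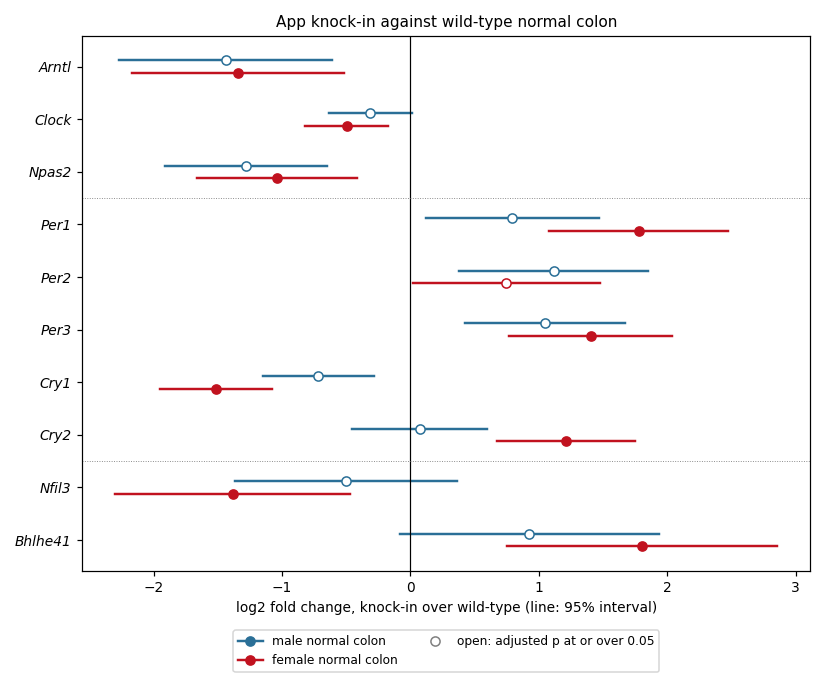
Log2 fold change of knock-in over wild-type normal colon for the 10 members in males and females, with 95% intervals (3 libraries per group); filled points have an adjusted p under 0.05. The positive limb and Cry1 lie left of 0 and the Per genes right of it in both sexes, with filled points in females only, and the difference between the sexes passed the test for no member.

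Arntl (chr7:113207465-113314126, + strand, GRCm38) encodes BMAL1, the indispensable partner in the activating pair. In normal colon it stood at 58.6, 61.9 and 77.8 CPM in wild-type males and at 100, 90.03 and 78.4 CPM in wild-type females. Knock-in males had 19.3, 21.2 and 32.6 CPM, and knock-in females 16.5, 19.7 and 69.7 CPM. The genotypes did not overlap in either sex, although the last of the knock-in female libraries, called b because 2 columns share its name, came close to the wild-type values. Relative to wild-type, Arntl was 2.54-fold lower in knock-in females (log2 -1.34, SE 0.39, adjusted p 0.0276 in edgeR) and 2.71-fold lower in knock-in males (log2 -1.44, SE 0.39, adjusted p 1.00). In tumours the level was 21.8, 20.7 and 30.7 CPM in wild-type males, 22.1, 28.9 and 27.2 CPM in wild-type females, and 23.1, 20.6 and 16.6 CPM in knock-in males. Arntl was thus lower in tumours than in normal colon of wild-type males by 2.68-fold (log2 -1.42, SE 0.40, adjusted p 0.0108) and of wild-type females by 3.44-fold (log2 -1.78, SE 0.40, adjusted p 0.00143). In knock-in males, whose normal colon was already at the tumour level, the tumour difference was -0.27 on the log2 scale (95% interval -1.10 to 0.55, adjusted p 0.646). The interaction that compares the tumour effects of the male genotypes was 1.15 (SE 0.55) and missed the threshold (adjusted p 0.207). The 5 lowest group means, between 20.1 ± 3.24 (knock-in male tumours) and 35.3 ± 29.9 CPM (knock-in female normal colon, SD, n = 3), overlap in their libraries.

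Npas2 (chr1:39193731-39363236, + strand) encodes a CLOCK relative that can replace it in the pair. Its wild-type normal values were 68.9, 78.6 and 88.7 CPM in males and 105, 88.6 and 88.3 CPM in females. In knock-in normal colon it had 34.2, 21.5 and 41.8 CPM in males and 25.0, 36.4 and 75.8 CPM in females. All knock-in libraries of a sex lay below all wild-type libraries of that sex, and library b was again the highest. The knock-in was 2.06-fold lower in females (log2 -1.04, SE 0.30, adjusted p 0.0247) and 2.43-fold lower in males (log2 -1.28, SE 0.30, adjusted p 1.00). In the authors' deposited table Npas2 is the only member past 0.05 in male normal colon, with a log2 difference of -1.30 and an adjusted p of 0.0271. Wild-type female tumours, at 45.4, 47.8 and 38.1 CPM, were 2.15-fold below their normal colon (log2 -1.11, SE 0.30, adjusted p 0.00536). Wild-type male tumours had 51.4, 71.0 and 56.8 CPM and knock-in male tumours 29.3, 32.7 and 37.1 CPM. These 2 tumour groups did not overlap, yet the difference of -0.85 (SE 0.30) missed the threshold (adjusted p 0.0646). Npas2 passed it in 4 of 15 alternatives (adjusted p down to 0.0204), and in the authors' deposited table this difference is -0.87 with an adjusted p of 0.0240.

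Clock (chr5:76209868-76304792, - strand), the third activator gene and a histone acetyltransferase, varied least. It was 1.41-fold lower in female normal colon of the knock-in than of the wild-type, with 224, 197 and 303 CPM against 338, 371 and 314 CPM (log2 -0.50, SE 0.15, adjusted p 0.0342). Male normal colon had 214, 242 and 177 CPM in the knock-in and 249.2, 231 and 307 CPM in the wild-type, which overlap. Among male tumours the order turned: knock-in libraries stood at 255, 309 and 254 CPM and wild-type libraries at 193, 182 and 174 CPM. Clock was the only member called between male tumours, 1.49-fold higher in the knock-in (log2 0.58, SE 0.15, adjusted p 0.0228), where 14.5% of all genes were called. This call was lost in 6 of 15 alternatives, namely with GC and length offsets, alone or with the replicate block, and without any wild-type male tumour library or knock-in male tumour replicate 2 (log2 down to 0.24, adjusted p up to 0.298). The member median there was 0.05, as was that of all genes. Clock fell in wild-type male tumours relative to normal colon (log2 -0.52, SE 0.15, adjusted p 0.0136), and in knock-in males the difference was 0.37 (SE 0.15, adjusted p 0.0905). The interaction between these tumour effects was 0.89 (SE 0.22, adjusted p 0.0477), the only one of the members' interactions past the threshold, against 1.51% of all genes. It missed the threshold in 16 of 21 alternatives, over which the adjusted p ran from 0.0100 to 0.203. Among those 16 were the omission of any wild-type male tumour library, of wild-type male normal replicate 1 or 3, of knock-in male normal replicate 1 or 3, or of knock-in male tumour replicate 1 or 2.

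The ratio of Npas2 to Clock counts within a library, which does not depend on scaling, described how the paired activators stood to each other. It was 0.302 ± 0.0340 in wild-type male and 0.277 ± 0.0361 in female normal colon of the wild-type (SD, n = 3 here and below). In knock-in normal colon it was 0.162 ± 0.0740 in males and 0.182 ± 0.0693 in females. Wild-type male tumours had a ratio of 0.328 ± 0.0621, whereas knock-in male tumours had 0.122 ± 0.0211 and wild-type female tumours 0.163 ± 0.0217. No test was run on ratios.

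Per1 (chr11:69095217-69109960, + strand) is a repressor that also responds quickly to glucocorticoids and cAMP. Among the Per genes it had the largest genotype difference in female normal colon and the smallest in male normal colon. Knock-in female normal colon held 157, 177 and 76.1 CPM and wild-type female normal colon 35.8, 26.8 and 57.4 CPM, without overlap. This was 3.43-fold higher in the knock-in (log2 1.78, SE 0.33, adjusted p 0.00221). In males the knock-in had 114, 97.4 and 95.9 CPM and the wild-type 67.3, 58.3 and 51.8 CPM, again apart, with a log2 difference of 0.79 (SE 0.32, adjusted p 1.00). Tumours held 38.2, 69.3 and 44.9 CPM in wild-type males, 21.6, 34.9 and 27.3 CPM in wild-type females and 50.2, 53.2 and 88.0 CPM in knock-in males. None of the 3 tumour comparisons called Per1. In knock-in males its tumours lay wholly below normal colon, with a log2 difference of -0.69 (SE 0.32, adjusted p 0.132).

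Per3 (chr4:151003652-151044665, - strand), a Per gene that the loop can run without, paralleled Per1 between genotypes. It stood at 127, 136 and 71.4 CPM in knock-in and at 51.4, 32.5 and 41.8 CPM in wild-type female normal colon, 2.64-fold higher in the knock-in (log2 1.40, SE 0.30, adjusted p 0.00544). Male normal colon had 64.6, 90.4 and 96.7 CPM in the knock-in and 38.9, 28.3 and 54.8 CPM in the wild-type, a log2 difference of 1.05 (SE 0.30, adjusted p 1.00). Tumours of wild-type females, at 14.9, 26.7 and 26.7 CPM, lay below their normal colon (log2 -0.88, SE 0.31, adjusted p 0.0242). This call was lost without wild-type female normal replicate 1 or wild-type female tumour replicate 1 and with a covariate for libraries numbered from 152 (adjusted p up to 0.114). Male tumours held 30.8, 32.9 and 37.1 CPM in the wild-type and 42.6, 75.8 and 48.0 CPM in the knock-in, where no difference from normal colon was called.

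Per2 (chr1:91415982-91459324, - strand), the Per gene on which rhythm depends most, was the exception in female normal colon. Its knock-in values of 160, 114 and 59.9 CPM overlapped wild-type values of 101, 60.2 and 36.7 CPM, and the log2 difference of 0.75 (95% interval 0.02 to 1.47) was not called (adjusted p 0.150). It passed the threshold without wild-type female normal replicate 1 or without knock-in library b (adjusted p down to 0.0422). Males differed more widely, at 97.1, 116 and 79.0 CPM in the knock-in and 44.2, 40.8 and 50.1 CPM in the wild-type, without overlap (log2 1.12, SE 0.35, adjusted p 1.00). In wild-type female tumours Per2 fell to 27.2, 23.4 and 20.6 CPM, 2.81-fold below normal colon (log2 -1.49, SE 0.36, adjusted p 0.00256). Male tumours held 22.5, 29.98 and 45.8 CPM in the wild-type and 58.2, 65.8 and 49.0 CPM in the knock-in. The difference from normal colon was -0.46 in wild-type males (adjusted p 0.335) and -0.76 in knock-in males (adjusted p 0.126).

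Dividing Arntl by the summed Per counts of the same library set 1 activator transcript against the Per transcripts alone. The Cry repressors are not part of it: in knock-in females Cry1 was lower, like Arntl, and Cry2 higher. The ratio was 0.457 ± 0.0586 in wild-type and 0.0866 ± 0.0289 in knock-in male normal colon. Wild-type female normal libraries had 0.534, 0.754 and 0.576, and knock-in female ones 0.0371, 0.0461 and 0.336. The first 2 of these were the lowest of all 21 libraries, while library b lay above every other knock-in library. Tumours had 0.212 ± 0.0478 in wild-type males, 0.351 ± 0.0124 in wild-type females and 0.116 ± 0.0327 in knock-in males.

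**Figure D3:**
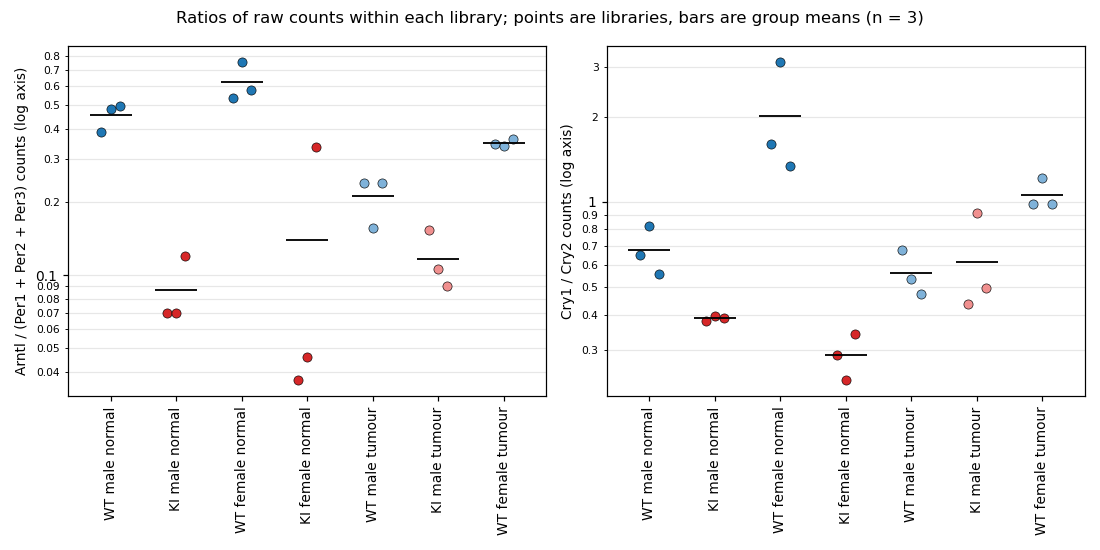
Ratio of Arntl counts to the sum of Per1, Per2 and Per3 counts (left) and of Cry1 to Cry2 counts (right) within each of 21 libraries, on log axes, with points for libraries and bars for group means (n = 3). Knock-in normal libraries lie below all wild-type normal libraries in both panels, at 0.0371 to 0.336 on the left and 0.235 to 0.397 on the right.

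The cryptochromes moved in opposite directions in females. Cry1 (chr10:85131700-85185064, - strand), the stronger repressor of the pair, had 20.4, 17.5 and 16.2 CPM in knock-in and 61.2, 60.1 and 33.0 CPM in wild-type female normal colon. It was 2.86-fold lower in the knock-in (log2 -1.51, SE 0.21, adjusted p 0.000187), and here library b did not stand apart. Male normal colon held 22.5, 15.2 and 19.9 CPM in the knock-in and 32.6, 34.4 and 27.3 CPM in the wild-type, also without overlap (log2 -0.72, SE 0.21, adjusted p 1.00). Wild-type female tumours, at 28.5, 31.5 and 22.2 CPM, were 1.88-fold below their normal colon (log2 -0.91, SE 0.21, adjusted p 0.00119). In males tumours held 24.9, 29.4 and 27.1 CPM in the wild-type and 21.8, 26.4 and 20.5 CPM in the knock-in, and no difference from normal colon was called.

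Cry2 (chr2:92403646-92434043, - strand) was higher in knock-in than in wild-type female normal colon, at 71.0, 74.6 and 47.6 CPM against 38.3, 19.2 and 24.6 CPM, a 2.32-fold difference (log2 1.21, SE 0.26, adjusted p 0.00462). In males the genotypes overlapped, with 59.3, 38.3 and 51.1 CPM in the knock-in and 50.2, 42.0 and 49.1 CPM in the wild-type (log2 0.07, 95% interval -0.46 to 0.60). The difference between the sexes, tested as an interaction, was 1.14 (SE 0.36, adjusted p 0.0979). Cry2 tumour values, from 22.5 to 57.1 CPM over 9 libraries, were called different from normal colon in none of the 3 comparisons. An antisense transcript, D930015M05Rik, overlaps 4.67% of its exonic bases, and the strand setting of the counts is not given in the sources used here.

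Cry1 and Cry2 were also the members called between the sexes in wild-type normal colon, where 15.9% of all genes were called. Cry1 was higher in females (log2 0.71, SE 0.20, adjusted p 0.0231) and Cry2 lower (log2 -0.76, SE 0.25, adjusted p 0.0490), and the member median was 0.16 against 0.00 for all genes. The Cry2 call was lost in 10 of 15 alternatives and the Cry1 call in 5 (adjusted p up to 0.232 and 0.120). Without wild-type female normal replicate 2 or wild-type male normal replicate 1 or 3, and in a fit of the compared groups alone, neither was called. Cell type markers differed here too: in females endothelial markers were lower for 4 of 4 (63.1 to 91.1 against 126 to 229 CPM), fibroblast markers for 3 of 6 (1126 to 1369 against 2368 to 2659 CPM) and smooth muscle markers for 3 of 8 (1909 to 4435 against 2809 to 9341 CPM), and goblet cell markers were higher for 2 of 5 (22594 to 46934 against 11347 to 23390 CPM). Their part in the Cry differences was not tested. The Cry1 to Cry2 ratio was accordingly 2.02 ± 0.964 in wild-type females and 0.675 ± 0.134 in wild-type males, against 0.287 ± 0.0530 and 0.388 ± 0.00860 in knock-in females and males. Tumours had 0.561 ± 0.103 in wild-type males, 1.06 ± 0.135 in wild-type females and 0.616 ± 0.259 in knock-in males. Between the sexes in knock-in normal colon 0 of 10 members were called by edgeR (0.584% of all genes, 1 member with an unadjusted p under 0.05, 0 in the authors' deposited table). In wild-type tumours edgeR likewise called 0 (0.86% of all genes, 3 members under 0.05 unadjusted), and the DESeq2 Wald test called 2, Clock and Cry2.

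Nfil3 (chr13:52967209-52981073, - strand) is the D-box repressor. Knock-in female normal colon had 4.29, 3.60 and 3.22 CPM, from 32 to 72 counts, and wild-type female normal colon 7.90, 13.1 and 8.36 CPM. This 2.61-fold lower level in the knock-in passed the threshold (log2 -1.39, SE 0.43, adjusted p 0.0374). In male normal colon the genotypes overlapped, with 11.1, 4.56 and 7.43 CPM in the knock-in and 11.8, 16.3 and 4.18 CPM in the wild-type. Tumours held 12.2, 25.0 and 14.4 CPM in wild-type males, 16.7, 18.4 and 13.8 CPM in wild-type females and 6.40, 10.5 and 13.6 CPM in knock-in males. Nfil3 was the only member with a positive tumour difference in all 3 comparisons (0.63, 0.74 and 0.41 on the log2 scale, in that order), none of which was called.

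Bhlhe41 (chr6:145858243-145865558, - strand), the E-box competitor, was the least abundant member and the most variable. It held 17.98, 13.7 and 4.90 CPM in knock-in and 2.83, 3.48 and 4.34 CPM in wild-type female normal colon. The groups were separated only by the gap between 4.90 and 4.34 CPM, from library b to wild-type replicate 3. The fitted difference was 3.49-fold (log2 1.80, SE 0.50, adjusted p 0.0211). Male values were 8.32, 10.6 and 6.83 CPM in the knock-in and 5.20, 4.79 and 3.48 CPM in the wild-type, apart but not called (log2 0.93, SE 0.48). In tumours it ranged from 0.979 to 12.4 CPM, and no tumour comparison called it. The antisense transcript Gm43909 overlaps 19.0% of its exonic bases, so its values are uncertain where reads were counted without strand.

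How far the female genotype calls rest on single libraries differed between members. Without wild-type female normal replicate 2, knock-in replicate 1 or knock-in library a only 4 of 10 members were called, without wild-type replicate 1 there were 5, and without wild-type replicate 3 or library b 9. Per1, Per3, Cry1 and Cry2 passed the threshold in each of the 13 alternatives run, with an adjusted p of at most 0.0342, 0.0391, 0.00400 and 0.0332. The calls of Arntl, Clock, Npas2, Nfil3 and Bhlhe41 were each lost in 4 to 6 of them, with an adjusted p up to 0.178, 0.186, 0.119, 0.157 and 0.0981. In the authors' deposited table the same comparison has 9 members past 0.05, 4 higher and 5 lower. Without library b the Arntl difference widened to -2.31 on the log2 scale.

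Cell type markers also differed in this comparison, in which 16% of all genes were called (8.97% higher, 7% lower). Smooth muscle markers were higher in the knock-in for 4 of 8 (median log2 1.52), summing to between 6625 and 9365 CPM against 1909 to 4435 CPM. Goblet cell markers were lower for 4 of 5 (9852 to 10882 against 22594 to 46934 CPM). Fibroblast markers were higher for 3 of 6 (2172 to 2746 against 1126 to 1369 CPM) and endothelial markers for 3 of 4 (149.98 to 165 against 63.1 to 91.1 CPM). Colonocyte markers were lower for 2 of 8, and leukocyte (7 genes), enteric neuron and glia (5) and adipocyte markers (2 of 4 tested) were not called, with Adipoq and Plin1 at 0 in the knock-in group. No marker of the smooth muscle, goblet, fibroblast or endothelial lists was at 0 in a group, and in bulk RNA fewer cells of a type and less RNA per cell cannot be told apart. The ribosomal precursor Rn45s took 4.85% to 5.96% of the counts in the knock-in and 2.84% to 3.18% in the wild-type libraries. The part of these shifts in the clock gene differences was not tested. In male normal colon, where 0.0126% of all genes were called, 0 markers of any list were called between genotypes by edgeR. The smooth muscle sums there, 2809 to 9341 CPM in the wild-type and 4399 to 7934 CPM in the knock-in, overlapped.

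In tumours the members called were all lower than in normal colon. Wild-type females had 5 of 10 called (Arntl, Npas2, Per2, Per3 and Cry1), against 49.1% of all genes (24% lower), with a member median of -0.90 and a median of 0.01 over all genes. Wild-type males had 2 of 10 (Arntl and Clock), against 35.7% of all genes (19.3% lower), with medians of -0.34 and 0.01. Knock-in males had 0 of 10 by edgeR and 0 in the authors' deposited table, against 20.4% of all genes, with 3 members at an unadjusted p under 0.05 (Clock higher, Per1 and Per2 lower) and medians of -0.24 and 0.01. With both directions counted, the share of members called was thus near or below the share of all genes in each of the 3 comparisons. For lower calls alone, 5 of 10 in wild-type females stood above the 24% of all genes. The 2 of 10 in wild-type males stood near 19.3%. The tumour effect differed between wild-type sexes for 0 of the 10 members (1.12% of all genes, 1 unadjusted, Cry1). Omitting wild-type male normal replicate 3 or wild-type male tumour replicate 3 took away the Clock call in wild-type males. The tumour comparisons share their normal libraries with the genotype comparisons, so the 2 sets of values are not separate measurements.

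**Figure D4:**
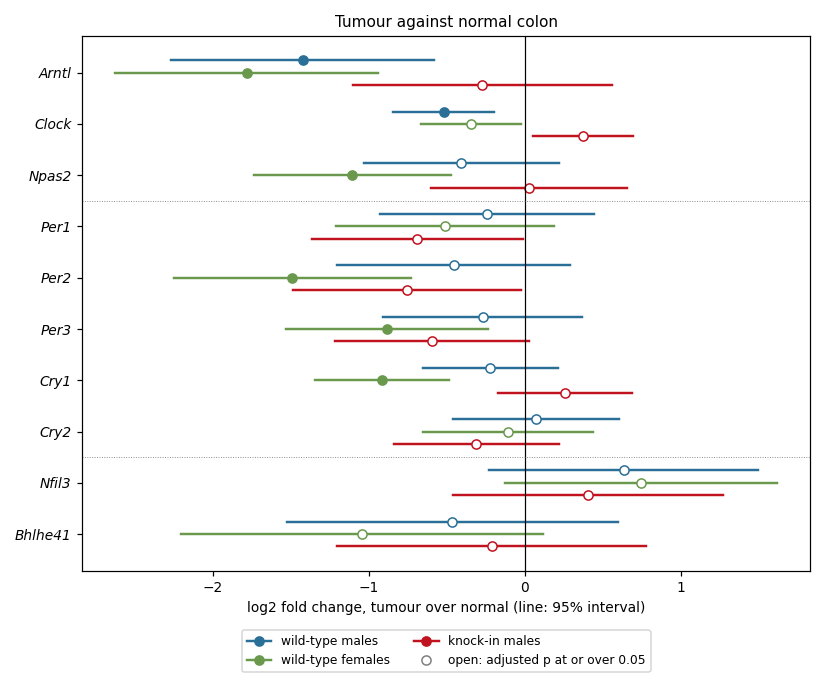
Log2 fold change of tumour over normal colon for the 10 members in wild-type males, wild-type females and knock-in males, with 95% intervals (3 libraries per group); filled points have an adjusted p under 0.05. Filled points lie left of 0 for Arntl and Clock in wild-type males and for Arntl, Npas2, Per2, Per3 and Cry1 in wild-type females, and there are none in knock-in males.

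Smooth muscle markers were lower than in normal colon for 8 of 8 in each tumour comparison, with sums of 222 to 768 CPM in wild-type male, 857 to 1003 CPM in knock-in male and 198 to 247 CPM in wild-type female tumours. Colonocyte markers were lower for 6 of 8 in wild-type males, 8 in wild-type females and 2 in knock-in males, and goblet cell markers for 4, 4 and 2 of 5, in the same order. In wild-type female tumours fibroblast markers were higher for 4 of 6 and lower for 1, endothelial markers higher for 3 of 4, leukocyte markers higher for 2 of 7 and lower for 2, and enteric neuron and glia markers lower for 2 of 5. In wild-type males enteric neuron and glia markers were lower for 3 of 5, fibroblast and adipocyte markers for 1 each, and endothelial markers higher for 1. In knock-in males leukocyte markers were lower for 2 of 7, enteric neuron and glia markers for 1 of 5, and fibroblast markers higher for 1 of 6. Rn45s took 7.96% to 9.998% of the counts in wild-type female tumours and 9.30% to 13.1% in wild-type male tumours, above the normal colon of the same sex and genotype (2.84% to 3.18% and 4.90% to 8.26%), while in knock-in males tumours and normal colon overlapped. The marker counts stand beside shares of all genes called of 35.7% in wild-type males, 49.1% in wild-type females and 20.4% in knock-in males. The part of the marker and Rn45s shifts in the members' tumour differences was not tested.

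Further genes of the pathway came from 2 lists. Of 9 clock outputs and nuclear receptors, 7 were higher in female normal colon of the knock-in than of the wild-type, and 0 lower (median log2 1.66), where 16% of all genes were called. The largest were the D-box activators Dbp (log2 4.89, SE 0.65, adjusted p 0.000216) and Hlf (log2 3.16, SE 0.42, adjusted p 0.000147). Dbp, whose transcription is driven through E-boxes, had 61.5, 76.6 and 10.5 CPM in the knock-in and 1.27, 1.67 and 2.32 CPM in the wild-type, so library b was the lowest of its group for Dbp and the highest for Arntl and Npas2. In male normal colon, where 0.0126% of all genes were called, 0 of the 9 were called between genotypes by edgeR and 4 had an unadjusted p under 0.05. In tumours this list had 3 of 9 lower in wild-type males, 3 in wild-type females and 2 in knock-in males, where 35.7%, 49.1% and 20.4% of all genes were called. Between male tumours, where 14.5% of all genes were called, 2 of the 9 were higher in the knock-in, Hlf by 1.71 on the log2 scale.

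Of 10 modifiers of clock proteins, among them kinases and ubiquitin ligase subunits, 5 were called in wild-type male tumours (2 higher, 3 lower), 3 in knock-in male tumours (1 higher, 2 lower) and 8 in wild-type female tumours (5 higher, 3 lower), beside the shares of all genes given above. Csnk1e, a casein kinase that phosphorylates PER proteins, rose in tumours of wild-type males (log2 1.44, SE 0.26) and wild-type females (log2 2.29, SE 0.28). Usp2, a deubiquitinase under clock control, was lower in tumours of wild-type males (log2 -1.34), knock-in males (log2 -1.19) and wild-type females (log2 -1.48). Fbxl21, a ubiquitin ligase subunit that acts on CRY proteins, was higher in wild-type female tumours (log2 1.87, SE 0.45), at 3 to 26 counts in the normal libraries. In female normal colon, where 16% of all genes were called (8.97% higher), 2 of the 10 were higher in the knock-in. These were Usp2 (log2 1.01, SE 0.25, adjusted p 0.0104 in edgeR) and Csnk1e (log2 0.83, SE 0.27, adjusted p 0.0460). In males 0 were called by edgeR (1 unadjusted), against 0.0126% of all genes. Between male tumours, where 14.5% of all genes were called, 2 were higher in the knock-in and 1 lower. Cipc, a repressor of the CLOCK pair, was higher at 0.72, and Csnk1e was lower at -0.90. Between wild-type sexes 2 of 9 outputs and 2 of 10 modifiers were lower in female normal colon, against 15.9% of all genes called.

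Over the 21 libraries the members fell into sets that ran together in log2 CPM, given here as Pearson r without a test, since libraries share groups. Per2 and Per3 had an r of 0.86, Per1 and Per3 0.84, and Arntl and Npas2 0.86, while Per3 and Nfil3 had -0.77. After subtraction of group means these values were 0.42, 0.35, 0.74 and -0.37 in the same order. Arntl then had -0.64 with Per1, -0.36 with Per2 and -0.17 with Per3. Without the knock-in female normal group the same pairs had 0.23, 0.11, 0.26 and -0.47 over 18 libraries. Arntl there had -0.38 with Per1 but 0.32 with Per2 and 0.53 with Per3. The within-group relations of Arntl rest largely on the knock-in female normal group. Among 11663 genes with a mean of at least 5 CPM, the genes most like Arntl over the 21 libraries were Slc34a2 (0.89), Gfer (0.88) and Npas2 (0.86). After subtraction of group means they were Bco2 (0.87), Josd1 (0.87) and Arhgef38 (0.85). For Per2 they included Per3 (0.86) and Lbh (0.84), and after subtraction Coq10b (0.76), Parg (0.70) and Ppil3 (0.70).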

How the data were processed

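Total RNA from mouse colon was depleted of ribosomal RNA with RNase H and reverse transcribed with random hexamers, per the labels' protocols. The deposited table holds raw counts per gene, made by the authors with Trimmomatic, HISAT2 and featureCounts on mm10, per the submitters' processing notes; annotation, strand setting and versions are not given in the sources used here. The other deposited table gives log2 fold changes, an adjusted p-value per pair of groups and log2 values per library from the authors' DESeq2 run, per the file headers. Counts of 2 columns with the same header in the knock-in female normal group were used as its unnumbered replicates a and b.

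All 21 libraries entered a single edgeR 4.0.16 fit (R 4.3.3; TMM, filterByExpr by group, robust quasi-likelihood F test, two-sided, 1 coefficient per group), with Benjamini-Hochberg adjustment over 15936 genes and a threshold of 0.05. The common biological coefficient of variation was 23%. CPM used TMM-scaled library sizes, and log2 CPM a prior count of 2. Ratios use raw counts. Gene positions and lengths are from GENCODE M21, promoters from RefSeq.

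The members, the pathway lists (outputs and nuclear receptors, modifiers), the marker lists (smooth muscle, colonocyte, goblet, fibroblast, leukocyte, endothelial, enteric neuron and glia, adipocyte) and the tests were chosen with earlier results of these data known. All members are named. From a pathway list at most 2 genes past the threshold with the largest absolute log2 fold change are named per comparison, and for likeness the 3 highest Pearson r. Usp2 in wild-type female tumours is named beyond this rule. Some genes under these rules are not reported here. On simulated data for knock-in against wild-type female normal colon (15936 genes, 200 changed) the test recovered 56% of genes shifted by 1 log2 unit and 85% of genes shifted by 2, and made 5 false calls.

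Replicate numbers come from the library names. Same-numbered wild-type male tumour and normal libraries deviated together (correlations of 0.27, 0.23 and 0.32), so these numbers were taken as pairs. The main fit does not use them. The replicate block, added over 6 groups at once, kept both calls there. In the other comparisons with numbered libraries not every correlation was positive. Knock-in male tumours and normal colon had -0.34, 0.11 and 0.15. Those numbers were therefore not taken as pairs, and calls gained there with the block are not paired tests. With 3 libraries a group, such correlations cannot show whether the tissues were paired. Alternatives comprised scaling by DESeq2 size factors or by library totals, no low-count filter, the DESeq2 1.42.0 Wald test, only the compared groups, the replicate block, library numbers of 152 and above as a covariate, leaving out each replicate, and, added after the data were seen, offsets for GC content and length.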

Additional observations from a re-analysis of the deposited data

Results flagged for a closer look

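Clock was the only member whose effect differed between groups by a test of the difference itself. Its tumour effect in knock-in males, 0.37 on the log2 scale, stood 0.89 (SE 0.22, edgeR adjusted p 0.0477) above that in wild-type males, -0.52. Knock-in male tumours had 255, 309 and 254 CPM and normal colon 214, 242 and 177 CPM. Wild-type male tumours had 193, 182 and 174 CPM and normal colon 249.2, 231 and 307 CPM. The interaction kept its sign in 21 of 21 alternatives, between 0.51 and 0.97, and missed the threshold in 16 of them.

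Among the further pathway genes, Hlf differed in its genotype effect in normal colon between the sexes. The log2 difference of knock-in over wild-type was 3.16 in females and 0.66 in males, and the interaction was 2.49 (SE 0.56, edgeR adjusted p 0.0246, 2.54% of all genes called). Knock-in females had 19.2, 19.7 and 10.9 CPM and wild-type females 2.16, 1.11 and 2.17 CPM. Knock-in males had 8.22, 11.3 and 6.14 CPM and wild-type males 6.75, 2.92 and 6.57 CPM. Hlf was chosen after its value was seen.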

How the results depend on the processing

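Over single members and alternatives, 411 results kept their direction and side of the threshold, 68 lost the call, 25 gained it and 0 reversed. Counts of members called moved as follows, and except where shown the cause was not tested. In female normal colon (9) library totals called 7, without Clock and Nfil3, only the compared groups 7, without Arntl and Npas2, and the GC and length offsets 8, without Clock. In wild-type female tumours (5) only the compared groups called 7, adding Clock and Nfil3, the GC and length offsets 6, adding Per1, and the covariate for numbers of 152 and above 5, with Per1 in place of Per3. Between male normal colons (0 called) the DESeq2 Wald test called 1, the replicate block 1 (Arntl), and the GC and length offsets with the block 2. Between male tumours (1) the Wald test, only the compared groups and the block each called 2, and the GC and length offsets 0. Between wild-type normal sexes (2) the unfiltered table, the covariate for numbers of 152 and above, the GC and length offsets and these with the block each called 1, and only the compared groups 0. Between wild-type tumour sexes (0) the Wald test and only the compared groups each called 2. In knock-in male tumours (0) the covariate called 1, Per1. The male tumour interaction (1) was 0 with DESeq2 size factors, no filter, only the compared groups, the block, the covariate, and the offsets with or without the block. The sex by genotype interaction (0) was 1 with the Wald test, Cry2.

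Leaving out 1 replicate in turn gave 4 to 9 members in female normal colon, 4 to 5 in wild-type female and 1 to 2 in wild-type male tumours, 0 to 2 between male tumours, 0 to 1 between wild-type normal sexes, 0 to 1 in the male tumour and the sex by genotype interactions, and 0 in the others. Between male tumours it was 0 without any wild-type male tumour library or knock-in male tumour replicate 2, and 2 without knock-in male tumour replicate 1. An arm left with 2 libraries has fewer residual degrees of freedom.

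The block was fitted on the 6 groups with unique numbers, gave 2 calls in wild-type male and 6 in wild-type female tumours (Clock added), and changed no call beyond those given. No paired analysis was possible for knock-in female normal colon because its columns carry no unique numbers. Depth limits Bhlhe41 most, at 6 to 302 counts per library.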
